A study of Homo sapiens with 6 samples.

Results

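In RNA-seq of a breast cancer line, 7 rows of the expression table carry names of nuclear genes that resemble mitochondrial RNA. They were MIR6723 and 6 MTRNR2L genes (MTRNR2L1, MTRNR2L2, MTRNR2L6, MTRNR2L8, MTRNR2L9 and MTRNR2L10), 7 of the 26255 rows of the table. They were chosen by name, with the levels and the group differences in these same libraries known, so those values are given here as a description with no test. The cells were MDA-MB-231, a human breast cancer line with mesenchymal features. They carried either a control short hairpin RNA (shNT) or a hairpin against GPR81, the lactate receptor encoded by HCAR1 (shGPR81). Both hairpins were delivered by lentivirus, both kinds of cell were kept under puromycin selection, and 3 libraries were made of each. Of the 2 GPR81 hairpins the study used, the labels do not name the one sequenced, and they do not say whether the libraries came from separate cultures.

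The mitochondrial genome is transcribed into long RNAs that are cut into ribosomal, transfer and messenger RNAs. MT-RNR2 encodes the 16S rRNA, the large ribosomal RNA of the organelle. Copies of mitochondrial DNA have been inserted into the nuclear chromosomes throughout evolution. The MTRNR2L genes are such copies of MT-RNR2, and they are named for a short open reading frame like that of humanin, a peptide encoded within the 16S rRNA that protects cells from apoptosis. MIR6723 is annotated as a microRNA gene in a copy of the cytochrome oxidase subunit 1 gene, MT-CO1, on chromosome 1. A short read from the organelle can match such a copy as well as its own gene. The expression table holds no row for the ribosomal RNA and protein-coding MT- genes. Reads that came from the organelle and reads that came from the copies therefore cannot be told apart.

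The likeness can be read in the sequences of GRCh37. MT-RNR2 spans chrM:1671-3229 on the plus strand and is 1559 bases long. The 75 bases below are the length of one sequencing read. Among stretches that all 6 MTRNR2L members carry with few changes, it was picked because MTRNR2L2, MTRNR2L8 and MTRNR2L9 differ least there. Those are the MTRNR2L members with the most reads, so nothing is read from the order of the differences in it. MTRNR2L2 has the same letters here as MTRNR2L8 and is not shown. Capitals mark the bases at which a copy differs from MT-RNR2.
MT-RNR2, chrM:2585-2659, plus strand: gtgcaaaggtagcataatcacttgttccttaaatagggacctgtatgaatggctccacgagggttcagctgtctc
MTRNR2L8, chr11:10529747-10529821, minus strand: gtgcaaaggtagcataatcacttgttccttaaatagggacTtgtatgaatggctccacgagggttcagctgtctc
MTRNR2L9, chr6:62284185-62284259, plus strand: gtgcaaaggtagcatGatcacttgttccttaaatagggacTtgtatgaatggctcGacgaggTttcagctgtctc
MTRNR2L1, chr17:22023340-22023414, plus strand: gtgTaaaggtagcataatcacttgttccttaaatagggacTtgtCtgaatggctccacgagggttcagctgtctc
MTRNR2L6, chr7:142375015-142375089, plus strand: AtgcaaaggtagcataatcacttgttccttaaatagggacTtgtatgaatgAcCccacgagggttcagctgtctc
MTRNR2L10, chrX:55208401-55208475, minus strand: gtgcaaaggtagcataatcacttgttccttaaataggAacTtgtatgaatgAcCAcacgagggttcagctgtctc

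In this stretch MTRNR2L2 and MTRNR2L8 each differed from MT-RNR2 at 1 base and were identical to each other. MTRNR2L1 differed at 3 bases, MTRNR2L6 and MTRNR2L9 at 4 and MTRNR2L10 at 5.

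The loci sit in different surroundings. The MTRNR2L8 locus lay at chr11:10529434-10530735 and the MTRNR2L9 locus at chr6:62284008-62284534, both between the genes of the GENCODE annotation. MTRNR2L2, MTRNR2L8 and MTRNR2L9 are not named in that annotation, and their loci were taken as the best match to MT-RNR2 at the neighbouring gene. MTRNR2L1 at chr17:22022437-22023991, MTRNR2L6 at chr7:142374104-142375550 and MTRNR2L10 at chrX:55207824-55208944 are annotated as protein-coding genes. An exon of an antisense non-coding RNA overlaps MTRNR2L1, and the sources used here do not say whether the counting used strand. Over its best alignment, identity with MT-RNR2 was 94.5% for MTRNR2L2, 93.0% for MTRNR2L8, 90.7% for MTRNR2L9, 88.4% for MTRNR2L1, 84.9% for MTRNR2L6 and 80.4% for MTRNR2L10. Across the nuclear chromosomes, 73 matches to MT-RNR2 were found, 25 of them over at least 1000 aligned bases.

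Levels were given as FPKM, fragments per kilobase of transcript scaled to library depth, as the authors deposited them. For the libraries as a whole, the markers of the line were present: VIM was at 3211 to 4443 FPKM, and CD44, AXL and CAV1 at 144 to 182 FPKM, while ESR1 and PGR were at 0 and ERBB2 at 10.6 to 12.6 FPKM. Markers of other cells (PTPRC, PECAM1, CDH1, FAP and ALB) were at 0 to 0.136 FPKM, and EPCAM was at 5.2 to 6.86 FPKM. HCAR1, the target of the hairpin, had 37, 40 and 52 reads in shNT and 40, 36 and 16 reads in shGPR81 cells, as recovered from the FPKM values. The groups overlapped and HCAR1 missed the threshold (log2 fold change -0.57, SE 0.311, limma adjusted p = 0.38). The names of the groups are therefore those of the labels. The study itself reported reduced GPR81 in both of its knockdown lines by RT-qPCR and western blotting. With so few reads of HCAR1, the libraries are a weak measure of it.

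MIR6723 had 294190, 296544 and 363485 FPKM in the shNT libraries, and 287506, 289550 and 246114 FPKM in the shGPR81 libraries. It was the highest row of the table. Its mean of 296232 FPKM was 40.2 times that of the next row, TMSB4X, the actin-binding peptide thymosin β4 (7375 FPKM). The other rows of highest mean were SNORD76 (6859 FPKM), RPL37A (5659 FPKM), RPS18 (5187 FPKM) and SNORD28 (5136 FPKM). RPL37A and RPS18 encode ribosomal proteins, and the SNORD rows are small nucleolar RNAs.

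The MTRNR2L members were far lower. MTRNR2L2 had 142, 148 and 169 FPKM in shNT and 104, 104 and 99.3 FPKM in shGPR81 cells. MTRNR2L9 had 106, 108 and 135 FPKM in shNT and 83.8, 85.3 and 90.9 FPKM in shGPR81 cells. MTRNR2L8 had 42.5, 44.4 and 52.5 FPKM in shNT and 30.5, 33.1 and 31.5 FPKM in shGPR81 cells. In each of these genes every shGPR81 library lay below every shNT library, and the third shNT library was the highest. MTRNR2L1 had 3.39, 3.78 and 4.25 FPKM in shNT and 2.66, 1.78 and 1.88 FPKM in shGPR81 cells. MTRNR2L6 had 1.10, 1.55 and 1.89 FPKM in shNT and 1.03, 0.982 and 0.635 FPKM in shGPR81 cells. Their groups did not overlap either, although for MTRNR2L6 the highest shGPR81 library and the lowest shNT library were close. MTRNR2L10 had 0.318, 0.387 and 0.555 FPKM in shNT and 0.0741, 0 and 0.450 FPKM in shGPR81 cells, and its groups overlapped. The order of the 7 rows by FPKM was the same in 6 of 6 libraries. The related rows MTRNR2L3, MTRNR2L4, MTRNR2L5 and MTRNR2L7, were listed at 0 in every library.

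**Figure D1:**
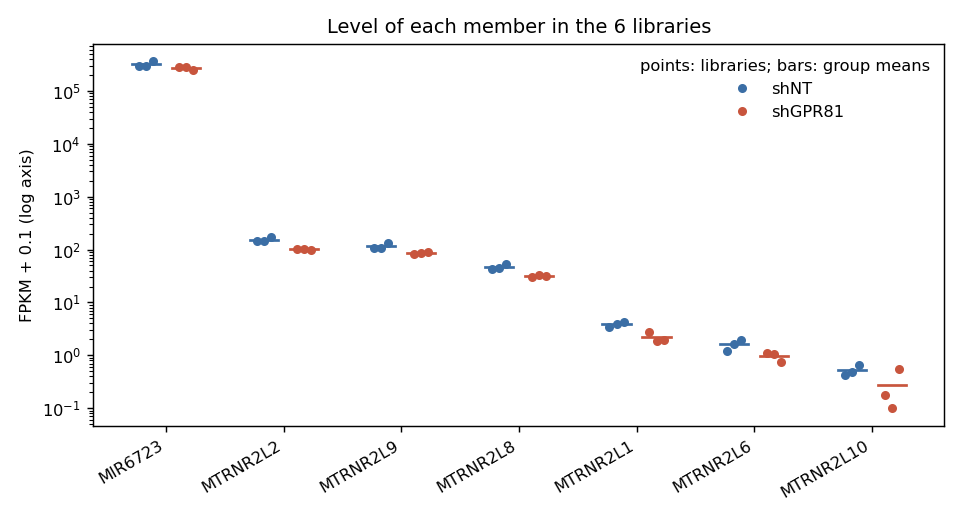
FPKM + 0.1 on a log axis for the 7 members in the 3 shNT and 3 shGPR81 libraries, with points for libraries and bars for group means. MIR6723 sits near 296232 FPKM, MTRNR2L2, MTRNR2L9 and MTRNR2L8 between 30.5 and 169 FPKM, and the other 3 below 5 FPKM.

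One row therefore held a large share of each library's FPKM sum. MIR6723 took 32.8%, 32.9% and 36.2% of the sum in the shNT libraries and 31.4%, 32.0% and 28.1% in the shGPR81 libraries. The share was 34.0% ± 1.95 (SD, n = 3) in shNT and 30.5% ± 2.13 (SD, n = 3) in shGPR81 cells, a difference of -3.46 percentage points. Every shGPR81 library was below every shNT library, but the lowest shNT and the highest shGPR81 library were within 1 SD of each other. The difference was -2.34 points without the third shNT library and -2.25 points without the third shGPR81 library. The 6 MTRNR2L members together added 0.0243% to 0.0362% of the FPKM sum. The sum itself ran from 876963 to 1003519 FPKM, and without the 7 rows it ran from 603261 to 639671 FPKM.

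FPKM is by definition scaled to transcript length, and the FPKM value of a read differed strongly between these rows. How length entered the deposited values is not known here, so the differences are not put down to length. For all 7 members the 6 values were whole multiples of a single step after correction for relative depth, so reads could be recovered as the smallest whole numbers that give the values. One read was worth 284 FPKM for MIR6723. One read was worth 0.227 FPKM for MTRNR2L9, 0.0875 FPKM for MTRNR2L2, 0.0794 FPKM for MTRNR2L10, 0.067 FPKM for MTRNR2L8, 0.0611 FPKM for MTRNR2L6 and 0.0538 FPKM for MTRNR2L1. A read thus counted 3247 times more in MIR6723 than in MTRNR2L2. That is more than plain division by length would give, as the MTRNR2L2 locus is 1026 bases long. What set these values was not tested. The mean FPKM of the 2 rows differed 2316 times.

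MIR6723 had 1035, 1069 and 1280 reads in shNT and 1083, 1077 and 916 reads in shGPR81 cells. On this scale the groups overlapped before depth was corrected. Relative depth here is the scaling that the FPKM values imply, as no read totals were given. By it the shGPR81 libraries were at 1.057 to 1.071 times the first shNT library, and the other shNT libraries at 1.001 and 1.025 times. MTRNR2L2, with 1628, 1729 and 1938 reads in shNT and 1278, 1256 and 1200 reads in shGPR81 cells, had more reads than MIR6723 in every library. MTRNR2L8 had 635, 679 and 785 reads in shNT and 488, 522 and 498 reads in shGPR81 cells. MTRNR2L9 had 467, 488 and 593 reads in shNT and 395, 397 and 423 reads in shGPR81 cells. The order by reads was MTRNR2L2, MIR6723, MTRNR2L8, MTRNR2L9, MTRNR2L1, MTRNR2L6 and MTRNR2L10 in 6 of 6 libraries. Of all reads of the 7 rows, MTRNR2L2 held 40.4%, MIR6723 28.9%, MTRNR2L8 16.1% and MTRNR2L9 12.4%.

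The low rows rested on few reads. MTRNR2L1 had 35 to 79 reads per library and MTRNR2L6 had 11 to 31. MTRNR2L10 had 4, 5 and 7 reads in shNT and 1, 0 and 6 reads in shGPR81 cells.

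Against the depth the table implies, 12300000 to 13200000 reads per library, MIR6723 made up 0.00702% to 0.0104% of the reads. All 7 rows made up 0.0312%, 0.0322% and 0.0382% in shNT and 0.0251%, 0.0253% and 0.0237% in shGPR81 cells. The depth was estimated from annotated lengths, so it is nominal. The middle range of the estimate over genes ran from 8800000 to 13200000 reads for the first shNT library.

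**Figure D2:**
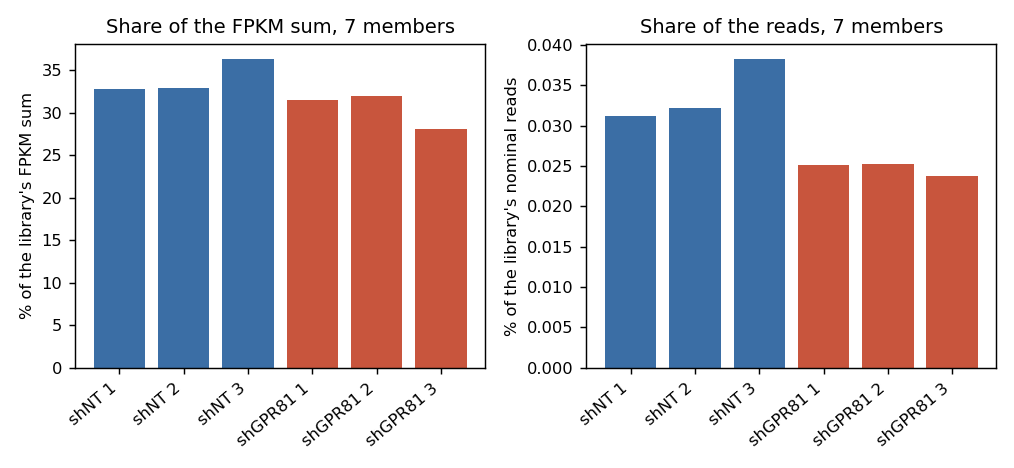
Share of the 7 members in each library, as a percentage of the FPKM sum (left) and of the nominal reads (right), with shNT in blue and shGPR81 in red and both axes starting at 0. The share lies between 28.1% and 36.3% on the left and between 0.0237% and 0.0382% on the right.

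The value of a read also varied among the other microRNA rows. Where reads were recovered, it fell more steeply with hairpin length than plain division by that length would give. How length entered the deposited FPKM values is not given in the sources used here and was not tested. The table held 1820 microRNA rows, and 57 besides MIR6723 were above 0 in any library. MIR6723 made up 95.78% to 98.42% of the FPKM of all microRNA rows. After it, the rows with the highest mean were MIR762 (874 FPKM), MIR3661 (805 FPKM), MIR3191 (737 FPKM), MIR4420 (523 FPKM) and MIR4737 (500 FPKM). MIR3191 reached 4424 FPKM in the first shGPR81 library and was 0 in the other 5. MIR4420 reached 3137 FPKM in the first shNT library and was likewise 0 elsewhere. Reads could be recovered for 9 of the 57 rows. One read was worth 1018 FPKM for MIR4737, whose hairpin has 81 bases in RefSeq, 284 FPKM for MIR1260B with 89 bases, 166 FPKM for MIR3916 with 94 bases, 117 FPKM for MIR6720 with 98 bases and 6.57 FPKM for MIR6753 with 164 bases. In that order these rest on 3, 5, 3, 2 and 2 reads over all libraries. As the smallest whole numbers were taken, 1 read may be worth less. The step of MIR6723, 284.241 FPKM, was that of MIR1260B to 6 digits, and MIR661 showed the same value in its 1 library above 0. Among rows whose reads were not recovered, the smallest value of MIR3614 (86 bases) was 85.2 FPKM and that of MIR4687 (80 bases) 445 FPKM, below the steps of hairpins of like length. MIR1260B, MIR661, MIR3614, MIR3916, MIR4687, MIR6720 and MIR6753 were named after their values were seen.

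**Figure D3:**
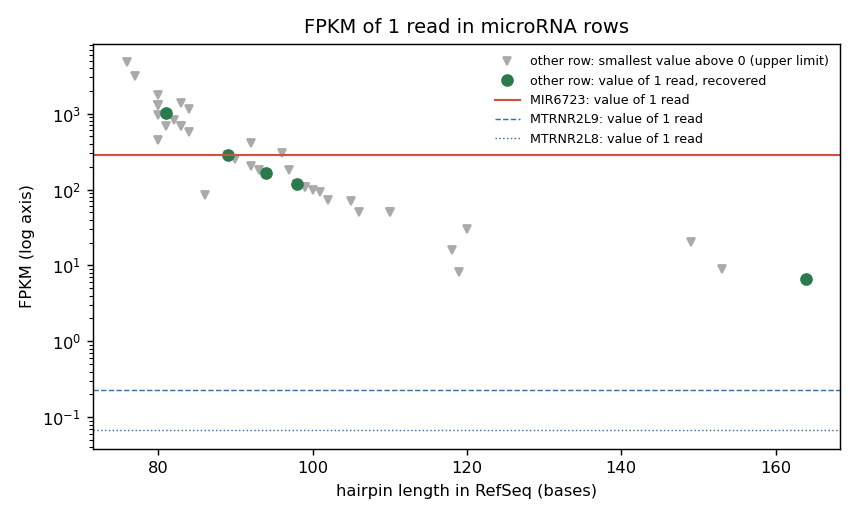
FPKM on a log axis against hairpin length in bases for microRNA rows above 0, with green circles for the value of 1 recovered read and grey triangles for the smallest value above 0, an upper limit. The circles fall from 1018 FPKM at 81 bases to 6.57 FPKM at 164 bases, but the triangles do not all follow them: MIR3614, at 86 bases, was at 85.2 FPKM and MIR4687, at 80 bases, at 445 FPKM. The circles rest on 2 to 5 reads each, so they too may lie above the value of 1 read. The horizontal lines mark 1 read of MIR6723 (284 FPKM), MTRNR2L9 (0.227 FPKM) and MTRNR2L8 (0.067 FPKM).

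How many reads a locus held went with how much of it is nearly identical to the organelle's genome. Each locus was cut into all overlapping windows of 75 bases, and each window was compared, without gaps and on both strands, with the whole mitochondrial genome of 16569 bases. MTRNR2L2 had 349 of 952 windows within 2 mismatches and 9029 reads over the 6 libraries. MTRNR2L8 had 246 of 1228 such windows and 3607 reads. MTRNR2L9 had 76 of 453 and 2763 reads. MTRNR2L1 had 33 windows and 339 reads, MTRNR2L6 23 windows and 121 reads, and MTRNR2L10 14 windows and 23 reads. MTRNR2L3, listed at 0, had 2 such windows, and MTRNR2L4, MTRNR2L5 and MTRNR2L7, also at 0, had none. Over these 10 loci the order by near-identical windows was thus the order by reads. Windows identical to the mitochondrial genome were fewer. There were 24 in MTRNR2L8, 3 in MTRNR2L9, 1 in MTRNR2L2 and 0 in the other 7, so their order was not the order by reads. The loci of MTRNR2L4, MTRNR2L5 and MTRNR2L7 were also placed by a neighbouring gene. The loci share ancestry, and overlapping windows share bases, so this is a description and the 10 loci are not independent points.

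**Figure D4:**
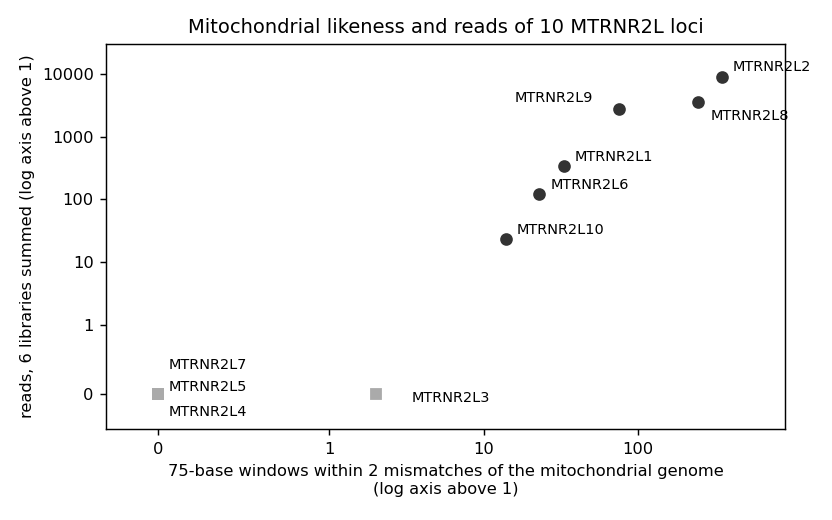
Reads summed over the 6 libraries against the number of 75-base windows within 2 mismatches of the mitochondrial genome, both on axes that are logarithmic above 1, for 10 MTRNR2L loci. Circles are the 6 members, which run from 14 windows and 23 reads to 349 windows and 9029 reads, and squares are the 4 rows listed at 0, which have 0 to 2 windows.

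The sequence of MIR6723 was not in the references used here. MTCO1P12, the copy of MT-CO1 on chromosome 1 (chr1:566454-567996, plus strand), was closer to its mitochondrial source than any of the MTRNR2L loci was to MT-RNR2, with 98.64% identity. Of its 1469 windows, 1270 were within 2 mismatches of the mitochondrial genome and 538 were identical to it. A further microRNA lies in one of these copies. The hairpin of MIR4485 was found in the MTRNR2L8 locus, and its mature form, uAACGGCCgcgguacccuaa (RefSeq, with the seed, bases 2 to 8, in capitals), occurs in both MTRNR2L8 and MT-RNR2. The row of MIR4485 was nevertheless at 0 in every library. It was named after its value was seen.

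Between shNT and shGPR81 cells, all 7 members had the lower mean in shGPR81 cells. The groups did not overlap for 6 of them, and 12.7% of the 14349 genes tested had groups apart in that direction. Because the members were chosen with this contrast known, nothing is read from this count. In RNA of whole cultures, fewer cells with a transcript and less of it per cell cannot be told apart. In the limma fit of log2(FPKM + 0.1), the log2 fold change was -0.84 (SE 0.169) for MTRNR2L1, -0.57 (SE 0.0708) for MTRNR2L2, -0.71 (SE 0.246) for MTRNR2L6, -0.55 (SE 0.0844) for MTRNR2L8, -0.42 (SE 0.0937) for MTRNR2L9, -1.27 (SE 0.591) for MTRNR2L10 and -0.21 (SE 0.286) for MIR6723. The median was -0.57 over the members and 0.0081 over all genes tested, of which 48.1% had a lower mean.

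On the scale of reads, the summed and depth-corrected count in shGPR81 over that in shNT was 0.67 for MTRNR2L2 (95% interval 0.642 to 0.698), 0.682 for MTRNR2L8 (0.638 to 0.729) and 0.745 for MTRNR2L9 (0.691 to 0.804). For MIR6723 it was 0.863 (0.822 to 0.907). It was 0.555 for MTRNR2L1 (0.441 to 0.695), 0.582 for MTRNR2L6 (0.394 to 0.852) and 0.415 for MTRNR2L10 (0.145 to 1.07). The intervals are Clopper-Pearson intervals and cover counting error only. For MIR6723 the shNT libraries varied by 12.4%, where counting alone gives 2.98%. Nothing is therefore read from which intervals overlap or reach 1.

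**Figure D5:**
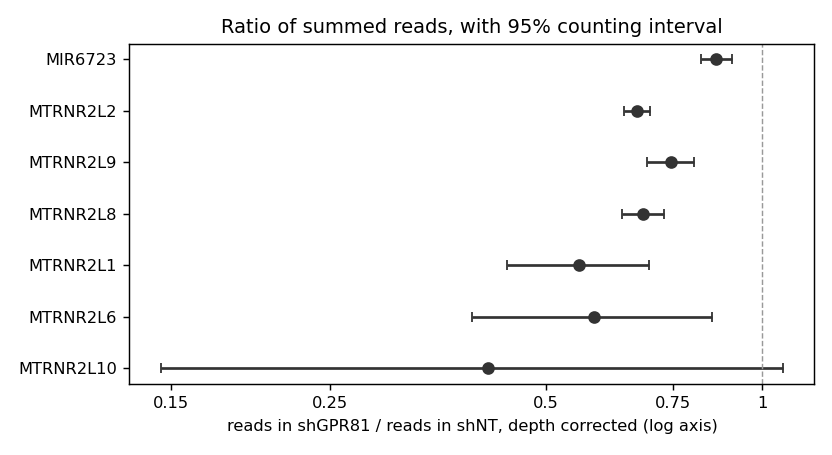
Depth-corrected reads in shGPR81 over reads in shNT for each member on a log axis, with the 3 libraries of each group summed. Points are ratios and bars 95% counting intervals, which leave out the spread between libraries. All 7 points lie below 1, and MIR6723 is the nearest to 1 at 0.863.

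For the 4 members with the most reads, the spread of the shNT libraries was well above counting error. The coefficient of variation over the 3 shNT libraries was 12.4% for MIR6723 (2.98% from counting), 9.34% for MTRNR2L2 (2.38%), 11.4% for MTRNR2L8 (3.78%) and 13.7% for MTRNR2L9 (4.4%). Over the shGPR81 libraries it was 2.79% for MTRNR2L2 (2.83% from counting), 4.04% for MTRNR2L8 (4.46%) and 4.27% for MTRNR2L9 (4.97%), which is near counting error. For MIR6723 it was 8.93% (3.12% from counting) there. The low members differed in this. In shNT the coefficient of variation was 11.3% for MTRNR2L1 (11.8% from counting), 26.3% for MTRNR2L6 (20%) and 29.1% for MTRNR2L10 (43.3%). In shGPR81 it was 22.9% for MTRNR2L1 (15.5% from counting), 24.3% for MTRNR2L6 (25.5%) and 138% for MTRNR2L10 (65.5%). The third shNT library was the highest and the third shGPR81 library the lowest for MIR6723, and without either one its log2 fold change was -0.11 and -0.13.

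The rows did not move in fixed proportion. MIR6723 had 0.636, 0.618 and 0.66 reads per read of MTRNR2L2 in shNT and 0.847, 0.857 and 0.763 in shGPR81 cells, so every shGPR81 library was higher. MTRNR2L2 had 2.47 to 2.56 reads per read of MTRNR2L8 in shNT and 2.41 to 2.62 in shGPR81 cells, and these groups overlapped. MTRNR2L2 had 3.27 to 3.54 reads per read of MTRNR2L9 in shNT and 2.84 to 3.24 in shGPR81 cells. These groups did not overlap either.

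Across the 6 libraries, the log2 levels of MTRNR2L2 and MTRNR2L8 correlated at r = 0.988, those of MTRNR2L8 and MTRNR2L9 at r = 0.971 and those of MTRNR2L2 and MTRNR2L9 at r = 0.948. About the group means the same pairs gave 0.902, 0.9 and 0.814. MIR6723 correlated with MTRNR2L2 at r = 0.808, and at 0.926 about the group means, but with MTRNR2L10 only at 0.196. These values share libraries and are descriptions. Among 11671 genes of at least 1 FPKM outside the members, those most like MIR6723 were ZCCHC7 (r = 0.993), C12orf45 (0.992), STAG3L4 (0.987), UBE2Q1 (0.977) and TRAF3IP1 (0.97). Those least like it were PLB1 (-0.98), DSTYK (-0.979), TCEB3-AS1 (-0.977), RNF216 (-0.972) and SLC10A7 (-0.961). They are the 2 ends of a ranking of all those genes over 6 libraries. None of the 10 passed the test of the groups.

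Gene lists around these transcripts were then followed. Proteins that copy or transcribe mitochondrial DNA, or process, modify or degrade its RNA, formed a list of 51 genes. All 51 were tested. A gene was called when its fold change was over 1.5 with an adjusted p below 0.05. In limma, 1 was called lower and 0 higher (2 and 1 at an unadjusted p under 0.05), against 1.59% and 0.955% of all genes tested, and the list's median log2 fold change was -0.04 against 0.0081 over all genes. The called gene was FASTKD5, which is required for the maturation of mitochondrial messenger RNAs, MT-CO1 included, at junctions without transfer RNAs. It had 18.2, 17.1 and 16.6 FPKM in shNT and 11.7, 9.96 and 10.7 FPKM in shGPR81 cells. All shGPR81 libraries were below all shNT libraries, and the fall was -0.68 on the log2 scale (SE 0.0768, limma adjusted p = 0.00345). FASTKD5 passed under 14 of 14 alternatives, with limma adjusted p from 0.00263 to 0.025. Such calls were not particular to this list, since 228 of the 14349 genes tested were called lower and 137 higher. Whether the fall of FASTKD5 bears on the members was not tested. Whether its neighbours on the chromosome fell with it was not examined either, so the fall may not be particular to FASTKD5. The 3 members of highest level did not pass. SLIRP, which stabilizes mitochondrial messenger RNAs with LRPPRC, had 485 ± 21.3 FPKM in shNT and 509 ± 25.6 FPKM in shGPR81 cells (SD, n = 3). SSBP1, the single-stranded DNA binding protein of mitochondria, had 223 ± 7.91 and 215 ± 12.6 FPKM. REXO2, an exonuclease that degrades short RNA, had 99.7 ± 1.69 and 105 ± 6.16 FPKM. The groups did not overlap for 4 genes of the list that were lower, FASTKD5 included, and for 1 that was higher, where 12.7% and 12.9% of all 14349 genes did so. Those besides FASTKD5 missed the threshold, with log2 fold changes of 0.26 for TFB1M (limma adjusted p = 0.0845), which methylates the 12S rRNA, -0.10 for TRMT10C (0.352), a subunit of mitochondrial RNase P, -0.15 for SUPV3L1 (0.264), the helicase of RNA decay, and -0.15 for MTPAP (0.387), the poly(A) polymerase.

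The proteins of the large subunit of the mitochondrial ribosome, which assemble on the 16S rRNA, formed a list of 49 MRPL genes, all tested. In the limma fit 0 passed in either direction (5 lower and 1 higher at an unadjusted p under 0.05), where 1.59% of all genes tested were called lower and 0.955% higher. The fold changes lay between -0.22 and 0.21 on the log2 scale with a median of -0.03. The groups did not overlap for 7 genes that were lower and 2 that were higher, where 12.7% and 12.9% of all genes tested did so. The most abundant were MRPL33 (393 ± 38.0 FPKM in shNT and 406 ± 18.2 FPKM in shGPR81 cells; SD, n = 3), MRPL51 (276 ± 10.9 and 292 ± 5.88 FPKM) and MRPL12 (196 ± 31.8 and 190 ± 14.3 FPKM).

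Receptors and binding partners of humanin formed a list of 11 genes, of which 8 were tested. FPR2, FPR3 and CNTFR were at or near 0. In limma, 1 gene was called higher and 0 lower (1 and 2 at an unadjusted p under 0.05), where 0.955% and 1.59% of all genes tested were called. The median log2 fold change was -0.04, against 0.0081 over all genes. The called gene was IGFBP3, a secreted protein that binds insulin-like growth factors as well as humanin. It had 10.8, 9.7 and 10.4 FPKM in shNT and 16.2, 17.3 and 15.9 FPKM in shGPR81 cells, and the groups did not overlap. The rise was 0.67 on the log2 scale (SE 0.0694, limma adjusted p = 0.0026), and it passed under 14 of 14 alternatives. BAX, the apoptosis effector that humanin binds, had 130 ± 8.84 FPKM in shNT and 137 ± 7.84 FPKM in shGPR81 cells (SD, n = 3). BID, a related activator, had 29.4 ± 1.62 and 28.0 ± 1.48 FPKM. IL6ST, the gp130 chain of the humanin receptor, had 28.3 ± 2.98 and 24.4 ± 1.35 FPKM. These 3 did not pass.

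The size of the MIR6723 row bears on any scaling by the FPKM sum. As deposited, 228 genes were called lower and 137 higher, and the median log2 fold change of genes outside the members was 0.0082. With each library divided by its FPKM sum, 176 were called lower and 168 higher, and the median was 0.06. With the 7 rows left out of that sum, 249 were called lower and 128 higher, and the median was -0.012. The share of other genes with a lower mean was 48.1%, 35.1% and 52.6% in turn.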

How the data were processed

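Poly(A)-selected, stranded RNA-seq libraries of MDA-MB-231 cells (3 shNT, 3 shGPR81) were read as 75-base single-end reads. The submitters' processing notes name TopHat2 2.0.13, Bowtie2 2.2.3, SAMtools 0.1.19 and Cuffnorm 2.2.1. They name a mouse build and the study's methods the human build, which was used here. The authors deposited FPKM per gene symbol, with no counts; how reads with several matches were assigned is not given in the sources used here.

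Levels were compared as log2(FPKM + 0.1) with limma 3.58.1 in R 4.3.3 (lmFit, eBayes with trend, no block), over 14349 genes of at least 0.1 FPKM in 3 or more of the 6 libraries. Fold changes are on that scale, which understates those of low genes. Calls required a fold change over 1.5 together with a p below 0.05 after Benjamini-Hochberg adjustment. The scripts were tested on simulated data. Nothing says that libraries came from separate cultures, so p-values measure the spread between libraries, which may be technical.

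Reads were recovered for 6998 of 14864 rows above 0 in at least 5 libraries, with a tolerance of 8e-06 relative to the reads. At most 3000 reads were tried for the lowest library, so rows with more reads could be missed. No count test was run on the recovered rows. The nominal depth used annotated lengths. Loci were placed in GRCh37 with BLAST 2.17.0 and GENCODE release 44, and microRNA lengths are from RefSeq. The position and surroundings of the MTRNR2L2 locus are not reported here.

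The members and lists were chosen with earlier results of these data known. Named genes were all members, the other MTRNR2L rows, the 5 highest other rows, the 5 genes most and least correlated with MIR6723, called genes and the 3 highest of each list, HCAR1 and the 5 highest other microRNA rows. Alternatives changed the pseudocount, filter, scaling and block, or left out 1 library.

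The labels do not say whether the replicate numbers pair the libraries. Deviations from the group means of same-numbered libraries correlated at 0.12, 0.0223 and 0.00577 across genes, which cannot settle it.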

Additional observations from a re-analysis of the deposited data

How the results depend on the processing

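Called genes numbered 365, and 217 with a pseudocount of 1. With the replicate number as a block there were 312, although the labels do not say that the numbers pair the libraries. Leaving out 1 library gave 193 to 394; without the second shNT, first shGPR81 or second shGPR81 library there were 193, 215 and 211. With the 7 rows left out of the fit there were 365.

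The difference in the MIR6723 share (-3.46 points) ran from -4.22 to -2.25 without 1 library, and that of the 7 rows (-3.47) from -4.23 to -2.26. As a share of recovered reads, a setting added after seeing the data, it was -0.00126 points for MIR6723 and -0.00917 for the 7 rows, on another scale. Multiplying FPKM by annotated length was not run, because MIR6723 had no length in the references.

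The members' median log2 fold change of -0.575 was -0.413 with a pseudocount of 1, and -0.625 to -0.5 without 1 library. MTRNR2L10 moved from -1.27 to -0.289 and -2.52 with pseudocounts of 1 and 0.01, and to -0.723 and -1.95 without the second and the third shGPR81 library. All members stayed lower under every alternative in which they were tested. With libraries divided by the FPKM sum, the median was 0.0122 for the mitochondrial RNA list with the members in the sum and -0.0598 without them (-0.0403 as deposited). For all other genes it was 0.0601, -0.0116 and, with median centring, 0.0041. Without 1 library these medians ran from -0.0458 to -0.0212 and from 0.0056 to 0.0118, that of the MRPL list from -0.0595 to 0.0319 and that of the humanin list from -0.0748 to 0.00019. MTRNR2L10 rests on 0 to 7 reads per library, which limits what it can show.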
